A study of Mus musculus with 6 samples.

Results

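The regions described here are 41623 H3K27ac summits of the Yap-activated gastric tumor that lay over 1 kb from every H3K27ac summit of normal stomach and over 1 kb from every YAP summit of both tumor YAP libraries. They were 62.6% of the 66532 tumor H3K27ac summits on chromosomes 1 to 19 and X, and the 6 lists of the study held 184671 summits there in all. A summit is the single base at which the enrichment of a called peak is highest. Only the positions of summits in 4 lists (both H3K27ac lists and both tumor YAP lists) chose these regions. Of the 66532 tumor summits, 50051 (75.2%) were over 1 kb from the 22386 normal H3K27ac summits and are called tumor-only, and 42671 (64.1%) were over 1 kb from the 38227 and 53831 summits of the tumor YAP libraries. The other classes of tumor summits, used for comparison, were 8428 tumor-only summits with YAP, 1048 summits shared with normal stomach without YAP, and 15433 shared summits with YAP.

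Chromatin came from cells of the gastric corpus epithelium that were detached with EDTA, then fixed and stored frozen, with no culture. Normal mice were labelled WT, and tumor mice were labelled CluCreERT2;R26rtTA;HA-Yap+, in which a tamoxifen-inducible Cre at the Clu gene and a tetracycline transactivator at Rosa26 act on an HA-tagged Yap. The protocol, which the labels give for both groups alike, was 2 mg tamoxifen into the peritoneum on 5 days followed by doxycycline food for 14 days. H3K27ac was profiled in 1 normal and 1 tumor library and YAP in 2 libraries of each kind, all read as 50 bp pairs. Each library gave 1 list, no label states whether the libraries of a pair came from separate mice, and the depth behind the lists is unknown. With 1 H3K27ac library per group no difference between normal and tumor has a replicate check, and Wilson 95% intervals, given in brackets, cover counting error only. The material was bulk epithelium, so more cells of a type and more of the mark per cell cannot be told apart.

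For 2 YAP libraries, the peak names held a word at odds with the label. Peaks of the YAP library labelled normal 2 carried the word Clu_Yap, as did those of tumor H3K27ac, and peaks of the one labelled tumor 1 carried the word cre, as did those of normal H3K27ac. Groups were taken from the labels, and the choice of summits was repeated with the YAP libraries grouped by those words and with each tumor YAP library left out. Grouped by the words, 42318 summits were chosen, with 8.37% within 1 kb of a gene end, 16.3% among the best-scored and 12309 genes. The shares by score band for each normal-labelled library are given by label only.

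Acetylation of lysine 27 on histone H3 is placed by the acetyltransferases p300 and CBP and marks active promoters and active enhancers, the distal elements that act on promoters from a distance. YAP is a transcriptional coactivator without a DNA-binding domain of its own, which the kinases of the Hippo pathway hold in the cytoplasm and which in the nucleus binds DNA mainly through TEAD factors, often at enhancers that also hold AP-1 factors. In the gastric corpus, glands are built of pit, parietal, neck and chief cells, and YAP activity is known from regeneration and from tumors.

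Within 1 kb of a transcript start lay 6.11% of the summits, compared with 21.1% of all tumor H3K27ac summits. Windows from 250 bases before to 50 bases after 32619 RefSeq transcript starts (build GRCm38.p6) held 662 of the 41623 summits (1.59%). The same windows held 433 of the 8428 tumor-only summits with YAP. They held 42 of the 1048 shared summits without YAP and 1454 of the 15433 shared summits with YAP. The 662 summits lay in 705 windows of 674 genes, and none of these 662 scored above 47.6. The score is the authors' −log10 of the peak's p-value or q-value. The 4 sequences below are the best-scored of the protein-coding starts whose summit lay before the start and whose 250 bases before the start overlapped no annotated gene, and they were chosen after their values were seen. They are shown as examples of upstream sequences in which a summit of the class lay, and the meaning of the summit's exact place was not tested. Capitals mark the bases within 10 positions of the summit. They read 5′ to 3′ on the gene's strand, which is plus for all 4, at chr15:100280587-100280836, chr7:109010630-109010879, chr6:29059971-29060220 and chr3:31149670-31149919.
Tmprss12: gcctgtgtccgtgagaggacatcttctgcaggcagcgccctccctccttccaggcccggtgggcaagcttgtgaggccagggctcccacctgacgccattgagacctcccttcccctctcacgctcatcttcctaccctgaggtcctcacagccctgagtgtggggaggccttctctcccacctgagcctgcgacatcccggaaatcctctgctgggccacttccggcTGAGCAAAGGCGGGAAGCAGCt
Tub: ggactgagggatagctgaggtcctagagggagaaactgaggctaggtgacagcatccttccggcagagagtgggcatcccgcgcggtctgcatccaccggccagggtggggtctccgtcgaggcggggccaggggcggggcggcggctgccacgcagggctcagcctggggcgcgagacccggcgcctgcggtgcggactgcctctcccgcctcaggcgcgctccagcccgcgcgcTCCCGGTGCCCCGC
Lep: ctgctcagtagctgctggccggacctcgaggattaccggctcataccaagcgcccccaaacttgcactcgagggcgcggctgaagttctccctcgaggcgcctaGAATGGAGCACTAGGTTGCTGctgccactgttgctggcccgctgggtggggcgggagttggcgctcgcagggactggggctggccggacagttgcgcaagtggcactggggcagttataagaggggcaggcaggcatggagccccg
Cldn11: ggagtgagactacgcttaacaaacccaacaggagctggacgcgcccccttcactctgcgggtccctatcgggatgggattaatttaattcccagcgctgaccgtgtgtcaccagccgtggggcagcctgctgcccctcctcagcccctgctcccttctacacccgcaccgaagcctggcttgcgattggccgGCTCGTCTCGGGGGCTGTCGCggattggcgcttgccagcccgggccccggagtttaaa

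The summit scored 31.8 before Tmprss12, a membrane serine protease, and lay 12 bases before the start. Before Tub, the founding member of the tubby family, it scored 29.7 and lay 4 bases before the start. At Lep, which encodes the hormone leptin, the summit scored 26.4 and lay 136 bases before the start, and at Cldn11, a tight-junction claudin, it scored 25.7 at 48 bases. All 4 sequences are rich in G and C, between 63.6% and 74.0%, and hold between 9 and 26 CpG. None of them holds GGAATG, the core of the TEAD motif, or TGANTCA, the AP-1 motif, on either strand, and of the 110 genes with an eligible start, 6 held the first and 8 the second.

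Across all 705 windows, the median GC content was 62.0%, against 53.0% over all 32619 windows and 66.7% over the 1615 windows with a shared summit with YAP. The median window held 14 CpG, against 7 over all windows and 27 with shared summits with YAP. A TEAD core GGAATG was present on either strand in 10.8% of the 705 windows (8.70 to 13.3), compared with 14.6% of all windows, and TGANTCA in 5.67% (4.19 to 7.63), compared with 7.85%. At shared summits with YAP both were lower still, at 9.35% and 3.78%. In the 472 windows with a tumor-only summit with YAP, the TEAD core stood at 14.8% (11.9 to 18.3) and TGANTCA at 5.51%. The GC box GGGCGG was present in 51.5%, above 35.9% of all windows. It was below the 71.1% at shared summits with YAP and the 73.9% at tumor-only summits with YAP. CCAAT was found in 26.7% against 37.6% of all windows, and AGATAA, a form of the GATA motif, in 4.82% against 11.2%. The windows were thus richer in GC and CpG than the average start and poorer in both than the starts with shared acetylation and YAP. These are matches of letters only, and GC content moves with them.

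Most of the summits were weak. Their median score was 10.2, with the middle of the distribution between 7.10 and 17.4 (25th and 75th percentiles), compared with medians of 14.9 for tumor-only summits with YAP, 21.5 for shared summits without YAP and 99.0 for shared summits with YAP. Among the 22386 best-scored tumor summits, as many as the normal list holds, 6726 belonged to the class, which is 16.2% of its summits (15.8 to 16.5) and 30.0% of that shortened list. Only 1 of them stood among the 6654 best-scored, at rank 3335, and the next followed at rank 7200. With the list cut by rank into 10 equal bins, the class made up 21.1% of bin 2, 57.7% of bin 3 and between 65.4% and 83.9% of each lower bin.

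**Figure D1:**
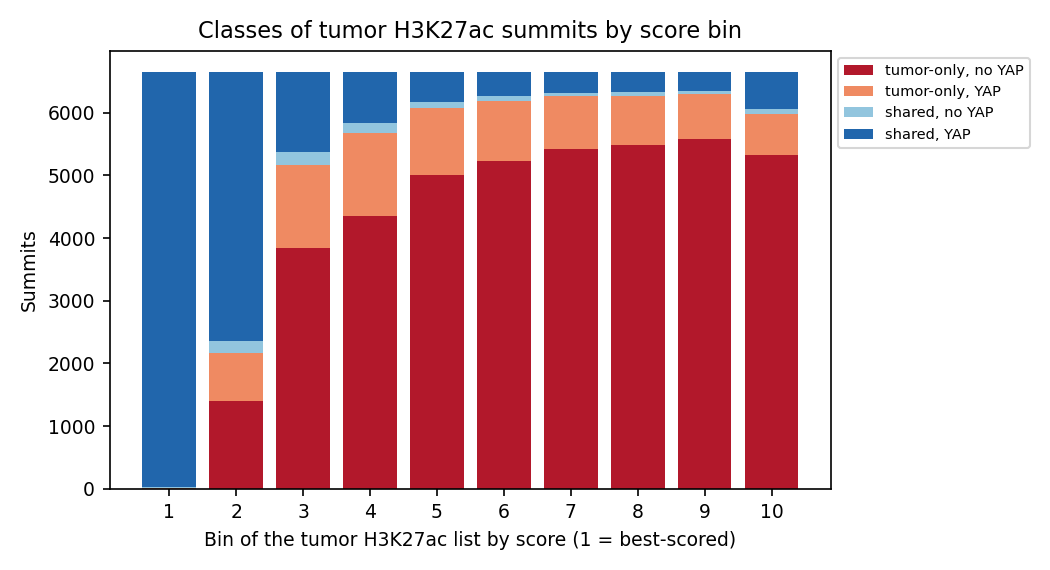
Number of tumor H3K27ac summits (y axis) of each class in 10 equal bins of the tumor list ranked by deposited score (x axis, 1 is best-scored). Tumor-only summits without YAP (dark red) hold 1 place in bin 1 and 5582 in bin 9, where shared summits with YAP (dark blue) hold 308.

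Many of the summits had exactly the same score as others. Of the 41623, 50.9% carried 1 of 30 score values that at least 100 tumor summits shared, compared with 25.5% of tumor-only summits with YAP, 10.5% of shared summits without YAP and 5.59% of shared summits with YAP. The commonest value, 7.10, was held by 2376 tumor summits, of which 2103 were tumor-only without YAP, and the 10 commonest values held 34.5% of the class. The order of summits within such a value is arbitrary, so ranks in the lower bins are coarse.

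Over all scores, the summits lay farther from gene ends than the other classes of tumor summits. The rule removed tumor summits near normal H3K27ac summits, of which 51.5% were within 1 kb of a gene end. The distances below are therefore not independent of the rule. Under scores of 5, the median distance was 11184 bp for this class. It was longer for shared summits without YAP (17391.5 bp) and with YAP (17606.5 bp). Shares for positions across the genome were not computed, so distance is compared between classes only. Only 8.24% (7.98 to 8.50) were within 1 kb of the start or end of a protein-coding gene, compared with 24.3% of tumor-only summits with YAP, 21.8% of shared summits without YAP and 62.3% of shared summits with YAP. The median distance to the nearest gene end was 20533 bp, against 419 bp for shared summits with YAP. Inside genes lay 53.7%, mostly away from their ends, and 32.0% had no gene end within 50 kb, compared with 6.66% of shared summits with YAP. The 1011 normal-only summits without tumor YAP had 6.82% (5.43 to 8.55) within 1 kb of a gene end. Their median score in the normal list was 5.06, and 2 of them reached 20, but scores of different lists are not on a common scale.

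The better-scored summits of this class lay farther from genes, which was the opposite of the shared summits with YAP. From scores under 5 to scores of 50 or more, the median distance to a gene end went up from 11184 to 86617 bp, and for shared summits with YAP it went down from 17606.5 to 294 bp. Of the 3117 summits with scores under 5, 8.79% were within 1 kb of a gene end, and the share was 7.81% of 17532 at scores from 5 to 10, 10.2% of 12408 from 10 to 20, 6.61% of 7669 from 20 to 50, and 0.892% (0.453 to 1.75; 8 of 897) at 50 or more. Over the same bands, the share of shared summits with YAP went from 15.3% to 75.6%. Tumor-only summits with YAP reached 35.8% at scores from 20 to 50 and were at 24.2% at 50 or more. They too lay farther out in the highest band. Their median distance was 8529 bp under 5, 5482 bp from 20 to 50 and 19904 bp at 50 or more. No gene end lay within 50 kb of 11.8% of them under 5 and 34.9% at 50 or more. Shared summits without YAP went from 17391.5 to 3906.5 bp. Of the 897 summits of this class at 50 or more, 28.8% were inside a gene, compared with 68.9% of those under 5. No gene end lay within 50 kb of 61.1%, compared with 19.02%. With the tumor YAP library labelled 2 left out of the rule, 29 of 1032 (2.81%) of the best-scored band were within 1 kb of a gene end, and with 500 bp limits 27 of 958 (2.82%). Without tumor YAP 1 the value was 12 of 1062 (1.13%), and by peak-name words 12 of 915 (1.31%). The value for this band therefore depended on that library and on the limit.

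**Figure D2:**
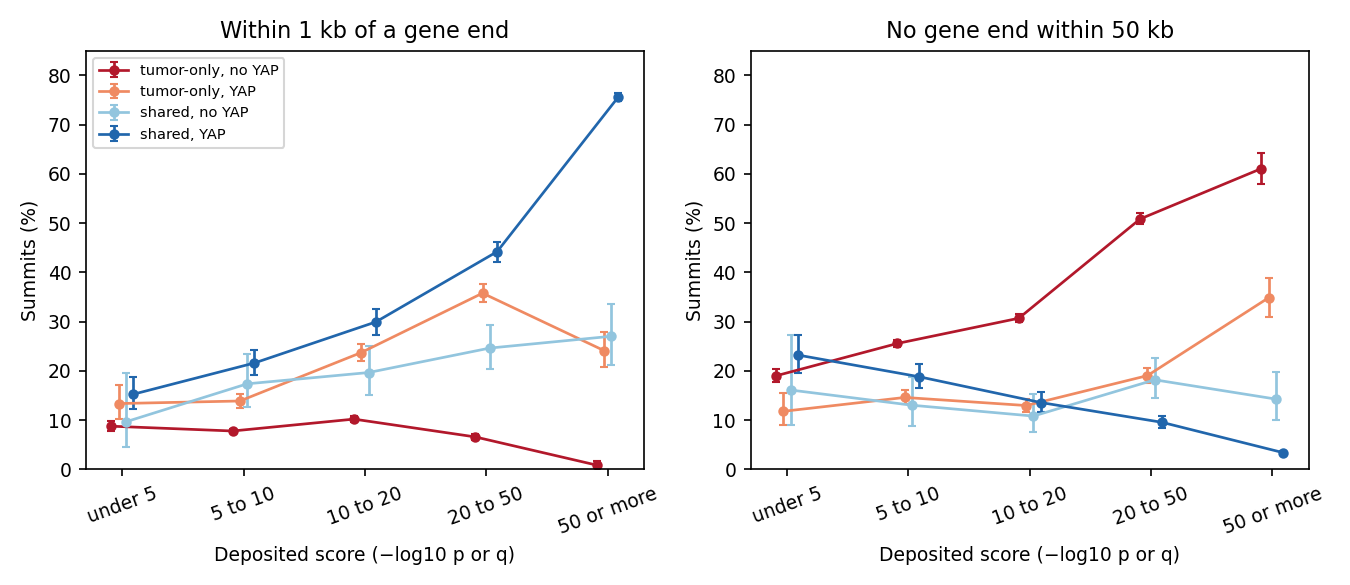
Percent of tumor H3K27ac summits within 1 kb of a protein-coding gene end (left) and with no gene end within 50 kb (right), by band of deposited score (x axis), for the 4 classes; points are shares and bars are Wilson 95% intervals. Tumor-only summits without YAP (dark red) go down to 0.892% on the left and up to 61.1% on the right, while shared summits with YAP (dark blue) go up to 75.6% on the left.

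The YAP libraries labelled normal were not themselves used to choose the summits. The rule still removed tumor H3K27ac summits near tumor YAP, and with them any normal-labelled YAP at the same places. The shares below are therefore not independent of the rule. Within 1 kb of a summit of normal 1 lay 400 of the 41623 (0.961%), against 1.42% of all tumor summits, and within 1 kb of normal 2 lay 352 (0.846%), against 2.87%. Both were below the value over all tumor summits, a set that includes the summits with tumor YAP. A summit of either library lay near 684 (1.64%). The share was highest at the highest H3K27ac scores. It was 0.128% for normal 1 and 0.160% for normal 2 under 5, and lower, 0.0799% and 0.0627%, at scores from 5 to 10. It was 0.306% and 0.266% from 10 to 20, then 3.05% and 2.50% from 20 to 50, and 12.3% (10.3 to 14.6) and 12.4% (10.4 to 14.7) at 50 or more. Over all tumor summits, normal 1 and normal 2 stood at 3.04% and 3.52% from 20 to 50, and at 2.86% and 9.77% at 50 or more. In the best-scored band the class was thus above all tumor summits, unlike in the whole list. In that band, shared summits with YAP had normal 1 at 1.34% and normal 2 at 8.88%, and tumor-only summits with YAP had 16.3% and 23.4%.

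Seen from the normal YAP lists, 400 of the 1574 summits of normal 1 (25.4%, 23.3 to 27.6) and 350 of the 2121 of normal 2 (16.5%, 14.98 to 18.1) lay within 1 kb of a tumor-only H3K27ac summit without tumor YAP. The same shares for shared summits with YAP were 20.3% and 55.6%. The 2 normal-labelled libraries differed most in how many of their summits lay at shared acetylated sites. The 400 summits with normal 1 had a median H3K27ac score of 39.6 and the 352 with normal 2 one of 43.4, against 9.87 for those with neither. Within 1 kb of a gene end were 1 of the 400 and 2 of the 352, and 65.5% and 59.4% had no gene end within 50 kb. High-scored summits of the class were far from genes in general. Of all its summits at scores from 20 to 50, 6.61% were within 1 kb of a gene end and 50.9% had none within 50 kb. At 50 or more these shares were 0.892% and 61.1%. Both libraries had a summit at 68 of the 41623. When the summits were instead chosen by distance from the YAP libraries with the word Clu_Yap, normal 2 and tumor 2, 393 of 42318 (0.929%) had a normal-labelled YAP summit, which by that choice can only be of normal 1.

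**Figure D3:**
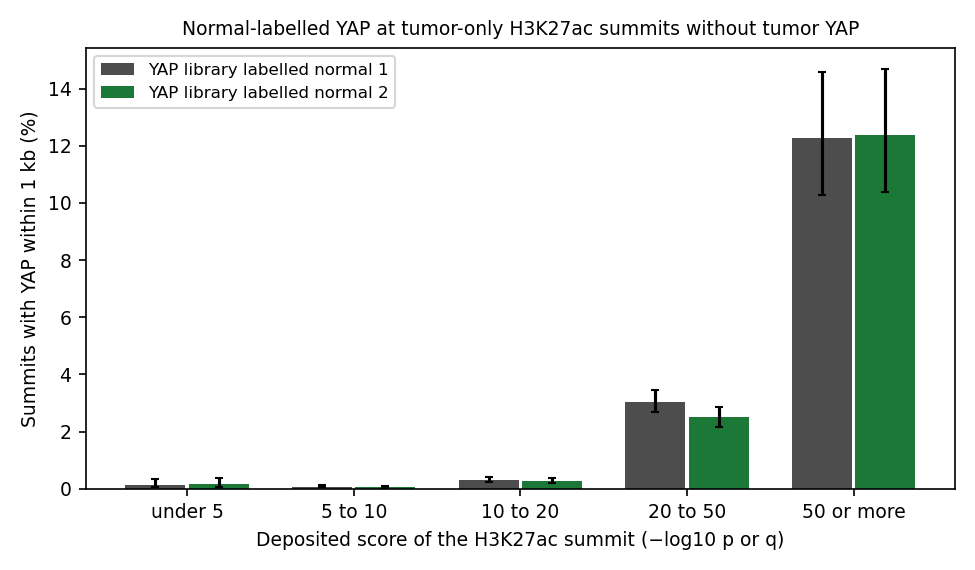
Percent of tumor-only H3K27ac summits without tumor YAP that lay within 1 kb of a YAP summit of the library labelled normal 1 (grey) or normal 2 (green), by band of deposited H3K27ac score; bars start at 0 and whiskers are Wilson 95% intervals. Normal 1 goes from 0.128% under 5 to 12.3% in the highest band, and normal 2 from 0.160% to 12.4%.

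Every chromosome held such summits, at densities from 9.28 per Mb on X to 22.3 per Mb on chromosome 11, with a median of 15.8. Their share of the tumor summits was between 56.0% and 66.0% on the autosomes, lowest on chromosomes 19 and 11 and highest on chromosome 5, and 71.4% (69.5 to 73.3) on X. Density followed gene density across the 20 chromosomes, which share 1 library (Spearman's rank correlation 0.848, Pearson's r 0.776, both as descriptions). The share that scored 50 or more ran the other way (Spearman's rank correlation −0.838), from 0.680% on chromosome 11 to 6.10% on X. The other tumor summits also were denser on gene-rich chromosomes, with 17.5 per Mb on chromosome 11 and 3.71 on X, and the share of the class among tumor summits was lowest on chromosomes 11 and 19 and highest on X. Chromosome X held 3.74% of all the summits but 10.6% of those that scored 50 or more. This rise was not particular to the class. For tumor-only summits with YAP, X held 2.73% of all and 7.87% at 50 or more. The values were 2.00% and 4.59% for shared summits without YAP, and 2.41% and 2.24% for shared summits with YAP.

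**Figure D4:**
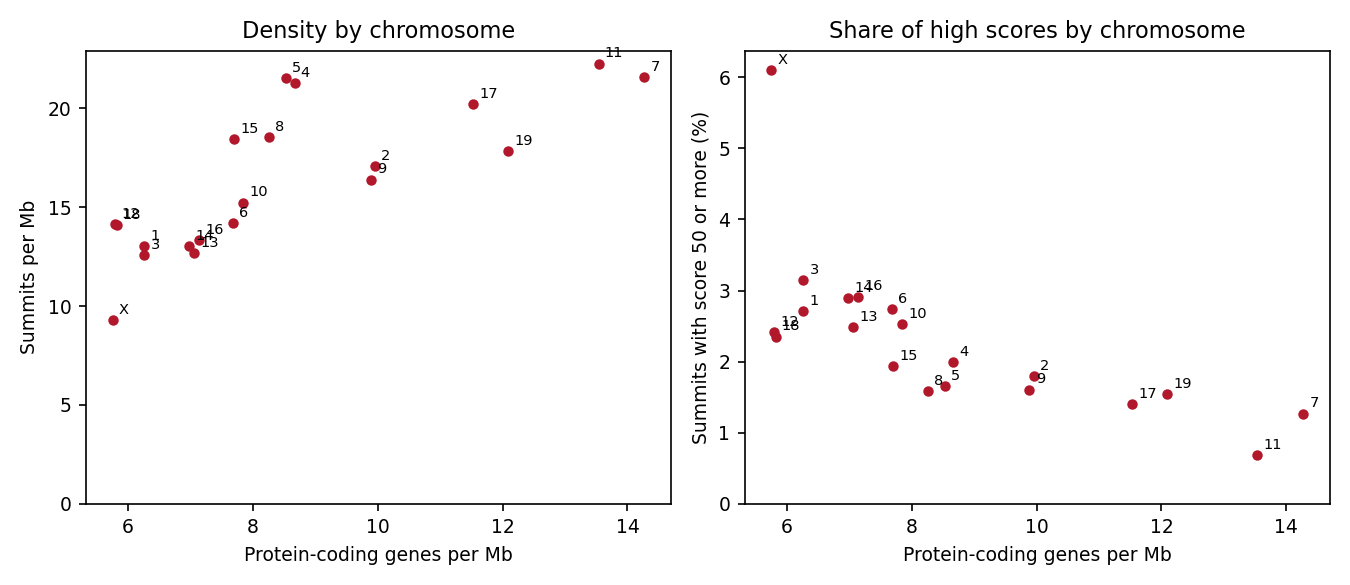
Density of tumor-only H3K27ac summits without YAP (left, summits per Mb) and percent of them that scored 50 or more (right), against protein-coding genes per Mb, with 1 point per chromosome. Chromosome 11 is highest on the left at 22.3 and lowest on the right at 0.680%, and X is lowest on the left at 9.28 and highest on the right at 6.10%.

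The summits clustered more often than the other classes. With summits chained where neighbours were at most 12.5 kb apart, they formed 27741 runs, of which 842 held 5 or more, and 13.9% of the summits were in these long runs, compared with 1.58% of tumor-only summits with YAP, 0.477% of shared summits without YAP and 3.57% of shared summits with YAP. The class is also the largest, which by itself shortens the gaps, and the part of number in these shares was not tested. Low scores went with runs. Of the summits under 5, 25.2% were in runs of 5 or more and 30.2% stood alone, compared with 1.34% and 83.8% of those at 50 or more. The longest run of any class held 33 tumor-only summits with YAP. The longest run without YAP held 28 summits over the protocadherin alpha genes (Pcdha1 to Pcdha12), cell-adhesion genes known from neurons that share their last exons, with a best score of 29.2. A run of 23 at chr11:99580764-99716043 covered keratin-associated protein genes of the hair follicle (named after its values were seen), with a median score of 20.5, and a run of 21 covered Tnrc18.

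In windows of 100 kb, 17157 held at least 1 of the summits, 7659 exactly 1, and 333 held 10 or more, which together had 3921 (9.42%). The densest were the protocadherin alpha window, with 22 and no other tumor or normal H3K27ac summit, and the Tnrc18 and Slc29a4 window, with 22, 3 other tumor summits and 1 normal summit. Windows at Ak1 and Eng, at Casz1 and Pex14, and at Atg7 and Hrh1 held 18 each. Eng encodes endoglin, a TGF-beta coreceptor of endothelium, and Atg7 an enzyme of autophagy. The last of these windows differed from the others in its 14 other tumor summits, and Hrh1 went from 6 summits of the class to 15 without tumor YAP 2. Further dense windows lay at Cdh22, at Nfatc2 and Atp9a and at Megf6, with 17 each, and at Eln, the gene of elastin, and at Lfng, Ttyh3 and Iqce, with 16 each.

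Each summit was assigned to the protein-coding gene with the nearest end within 50 kb, which left 28286 assigned and 13337 without a gene. At least 1 was assigned to 12168 of 21627 genes (56.3%), at least 3 to 3703 (17.1%) and at least 10 to 170 (0.786%). Of the 12168 genes, 6753 (55.5%) also had a normal H3K27ac summit and 5415 (44.5%) had none. For 3879 genes, 17.9% of all genes, these summits were the only H3K27ac summits of either list. The longer the stretch assigned to a gene, the more often it had a summit, from 30.7% in the fifth of genes with the shortest stretches to 80.3% in the fifth with the longest, while the number per 100 kb went from 4.01 down to 1.68. Counts per gene and per list are to be read against this.

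The 10 genes with most of the summits had between 17 and 23 each. Tnrc18 had 23, beside 9 other tumor summits and 4 normal ones, and Casz1, a zinc-finger transcription factor, had 21, beside 11 and 8. Grm4, a metabotropic glutamate receptor, had 21, beside 4 other tumor summits and no normal one. Pax7, the paired-box factor of muscle stem cells, had 21 with 1 normal summit, and Lmx1b, a LIM-homeodomain factor, 20 with 1. Cbfa2t3, a corepressor, and Rbm19, a factor of ribosome biogenesis, had 19 each. Cdh22, a cadherin, had 17 and no normal summit. Their summits were mostly weak, as the best score at Lmx1b was 14.0, at Grm4 19.4 and, the highest of the 10, at Casz1 50.4.

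Among the genes with most of these summits and no normal H3K27ac summit, Pax2 had no other tumor summit either. Pax2, a paired-box factor of the kidney, had 17, with a best score of 19.4. Others with no normal summit were Cux2 with 17, Ryr1, the calcium-release channel of skeletal muscle, with 17, Bcl11b, a zinc-finger factor of T cells, with 16, Cacna1i, a T-type calcium channel, with 15, and Mgat5b, a glycosyltransferase, with 14. At Bcl11b the best-scored summit lay 258 bp from a gene end, and at Grm4, Cdh22, Pax2, Cux2, Ryr1, Cacna1i and Mgat5b it lay between 1999 and 44223 bp away.

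The genes with the best-scored summits were other ones and had between 1 and 5 summits each. The highest score, 203.8 at chr2:83984126, lay 42900 bp from Zswim2, with a tumor YAP 2 summit 5816 bp away. Zswim2 had 3 summits of the class, and 9 without tumor YAP 2. The next were 111.3 near Zfp992, 108.0 near Gm40469 and 105.1 inside Cdk5rap2, a centrosome protein. Then came 3 summits with no gene end within 50 kb, which scored 99.7 on chromosome 9, 96.8 on chromosome 1 and 96.8 on X. The genes that followed, by their best summit, were Prl2c5 (90.1), Pacsin2 (89.0), Mid1 (86.2), Rasgrp3 (81.7), Zfp970 (81.1) and Ptgs1 (80.8). Ptgs1 encodes cyclooxygenase 1, and the summit 41342 bp from it had normal-labelled YAP summits 68 and 48 bp away. Zfp992, Zfp970 and Prl2c5 belong to families with close copies, so the place of their reads is uncertain.

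Genes of the pathway and of the gastric cell types were then counted from lists, read against 56.3% of all genes with a summit and 2.17 summits per 100 kb. Of 27 YAP/TAZ targets, 18 had at least 1, with 50 summits (1.95 per 100 kb), beside 54 other tumor and 49 normal summits. The most were at Arhgef17, a guanine nucleotide exchange factor, with 8, then Amotl2, an angiomotin that binds YAP, with 7, and Ptpn14 and Wwc1, both restrainers of YAP, with 5 each. Amotl1 had 4, Frmd6 and Asap1 had 3, and Axl, Foxf2, Tgfb2 and Lats2 had 2. Ccn1, Ankrd1, Igfbp3, Ccdc80, Dock5, Nuak2 and Rbms3 had 1, and Ccn2, Ajuba, F3, Fjx1, Gadd45a, Crim1, Nt5e, Myof and Edn1 had none. All 27 had a tumor H3K27ac summit of some class. Without the tumor YAP library labelled 1, Frmd6 had 5 and Igfbp3 had 2, and without that labelled 2, Fjx1 had 1. The best scores were 38.6 at Rbms3, 37.0 at Ptpn14 and 26.9 at Amotl2.

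Of 25 Hippo pathway genes, which share Lats2 and Wwc1 with the target list, 18 had a summit, with 60 in all (2.53 per 100 kb). Taok3, an upstream kinase, had 8, Wwc2 had 6, and Vgll4, a TEAD cofactor that competes with YAP, and the kinase Taok2 had 5 each. Of 18 chromatin regulators of H3K27ac, 10 had a summit, most at Smarca4, the ATPase of the BAF complex, with 8, and at Brd3, a reader of acetylated lysine, with 6. The share for the regulators, 55.6%, was close to that of all genes.

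Among gastric lists, transcription factors stood at 19 of 20 genes with a summit and parietal cell genes at 16 of 20. The factors with most were Runx1 with 8 and Gata5 with 6, and Gata4 had 3, of which the best scored 76.1. The list held 49 of these summits beside 70 other tumor and 68 normal summits. Parietal genes were led by Kcnq1, the potassium channel of acid secretion, with 12, the nuclear receptor Esrrb with 7, Ezr with 4 and the gastrin receptor Cckbr with 3. Both lists have long assigned stretches, with medians of 98.9 and 93.3 kb against 45.8 kb over all genes, and 2.53 and 2.18 summits per 100 kb.

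The other gastric lists were below the share of all genes. Pit cell genes stood at 6 of 13, with 2 each at Anxa10, Sult1c2 and Capn8 and 1 at Fut2, and with 1.12 per 100 kb. Chief cell genes stood at 6 of 14, with 2 each at Ptger3 and Gpx3 and 1 at Xbp1 and Lipf. Neck cell and metaplasia (SPEM) genes stood at 8 of 18. Tff2, the trefoil peptide of mucous neck cells, had 3 and no other H3K27ac summit in either list, and Cftr, Mal2 and Muc6 had 2 each.

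Regenerative and fetal-like genes stood at 13 of 25, with 3 each at Krt17 and Anxa2 and 2 at Sprr1a. Endocrine and tuft cell genes stood at 15 of 18, with 50 summits on short stretches. Their 4.56 per 100 kb were the highest of the 21 lists, beside 9 other tumor and 8 normal summits. Pax6, an endocrine transcription factor, had 10, Ptgs1 and Avil, a tuft cell protein, had 5, and Chga, the granule protein chromogranin A, had 4 with a best score of 37.4 at 226 bp from a gene end.

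For growth and matrix, 9 of 25 proliferation genes had a summit, among them the cyclins Ccnd1 with 5 and Ccnd2 with 4, then Mcm2 and Mki67 with 2. With 2 kb limits Ccnd1 had 1 and Ccnd2 had 4, so the order of these genes turned. AP-1 genes stood at 7 of 14, with 3 each at Fosl2 and Batf3 and 2 each at Mafk and Batf. Both lists had more of the other tumor summits, 45 and 42, than of this class, 19 and 13. Matrix and EMT genes stood at 20 of 23, with 4 each at Snai1, a repressor of E-cadherin, and Itgav, and 3 each at Twist1 and Snai2.

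Markers of cells that a corpus preparation could also hold, or should lack, had summits of this class too. Of 18 fibroblast, muscle and endothelial genes, 13 had a summit, with 39 in all beside 16 other tumor and 15 normal summits, 6 each at Pecam1 and Myh11 and 4 each at Pdgfrb and Pdgfra. Immune genes stood at 10 of 20, with 4 at the macrophage gene Adgre1, 3 at Cx3cr1 and 2 each at Itgax and Itgam. Squamous genes stood at 8 of 14, with 4 each at Sprr2a1 and Pax9 and 2 each at Krt4 and Krt6a, and intestinal genes at 6 of 14, with 2 each at Muc2, Cdx2 and Lyz1. The part of such cells in the tumor-only summits was not tested.

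Neuronal genes, which epithelium should lack, stood at 16 of 18, with 11 at Rbfox3, 4 each at Gria2 and Nrxn3 and 3 at Syt1. Their assigned stretches were the longest of any list, with a median of 172 kb, and their 1.34 summits per 100 kb were under the value of all genes. For 11 of these 18 genes the class supplied every H3K27ac summit. Genes of neighbouring organs stood at 5 of 12, with 6 at Nphs1, 5 at Ptf1a, 3 at Cyp3a11 and 1 at Ins1. Housekeeping genes stood at 4 of 18, the lowest share of the lists, with 4 at Ywhaz, 2 at Tfrc and 1 each at Actb and Polr2a, and all 18 had a normal H3K27ac summit.

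Receptors of smell and pheromones, which are mainly expressed in sensory neurons, stood at 441 of 1465 (30.1%). They held 625 of the summits but 57 other tumor and 27 normal ones, and for 420 of the genes the class supplied every H3K27ac summit. By family, 278 of 1110 Olfr, 98 of 231 Vmn1r and 65 of 124 Vmn2r genes had 1, and the most were 10 at Vmn2r69, 5 at Vmn2r63 and 4 each at Olfr1355 and Vmn2r83. Per 100 kb they had 1.29, under the 2.17 of all genes. These families have many near-identical copies, so reads may be placed at the wrong copy.

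**Figure D5:**
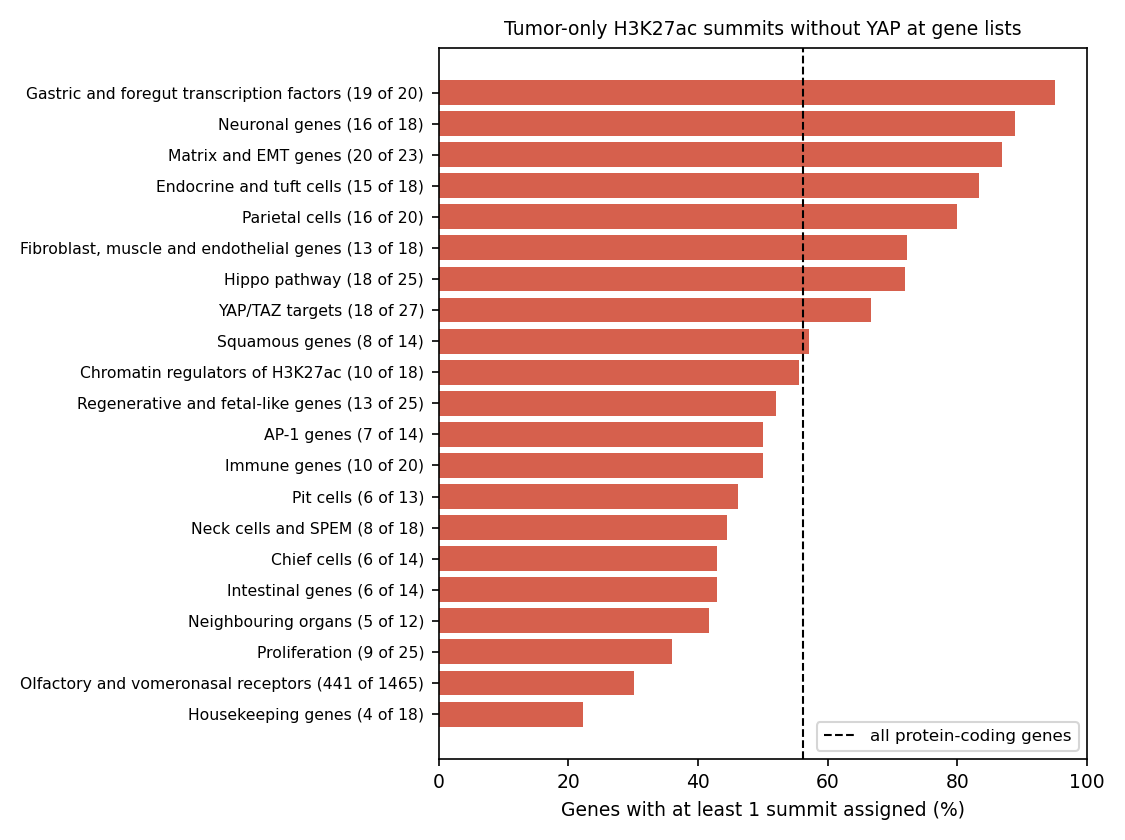
Percent of the genes of each list with at least 1 tumor-only H3K27ac summit without YAP assigned (bars, from 0), with the number of genes beside each list's name; the dashed line is the 56.3% of all protein-coding genes. Gastric and foregut transcription factors are highest at 19 of 20 and housekeeping genes lowest at 4 of 18.

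When only the 6726 summits among the 22386 best-scored were counted, 2688 genes (12.4%) had 1, and the order of the lists changed. Gastric transcription factors stood at 7 of 20 genes, endocrine and tuft cell genes at 5 of 18, matrix genes at 6 of 23, intestinal genes at 3 of 14 and YAP/TAZ targets at 5 of 27. Olfactory and vomeronasal receptors stood at 185 of 1465 (12.6%), close to all genes. Parietal genes stood at 1 of 20, neuronal genes at 2 of 18, and housekeeping genes and genes of neighbouring organs had none.

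The 1 kb limits cut through a continuous range of distances. The median summit of the class was 48683 bp from a normal H3K27ac summit and 14884 bp from tumor YAP, while 7.07% were 1 to 2 kb from tumor YAP. Just inside the limit to normal H3K27ac, from 1000 to 1100 bp, lay 74 summits with a median score of 11.4, and just outside, from 900 to 1000 bp, lay 54 tumor summits with a median of 13.8. For tumor YAP the same bands held 352 with a median of 9.87 and 321 with a median of 10.4. Among the best-scored just inside were summits at Tmem267 (66.0), Etv5 (63.1) and Cmss1 (60.1), and just outside at Tent4a (69.5), Slc26a9 (60.2) and Usp2 (59.4).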

How the data were processed

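The deposited values were 6 lists of peak summits from chromatin immunoprecipitation sequencing of H3K27ac and YAP, 1 list per library, with a −log10 score that the authors' peak caller gave each peak. Reads were aligned with Bowtie2 and peaks called with MACS2 on GRCm38 (mm10), per the submitters' processing notes. Not given in the sources used here are versions, thresholds, the control library and whether the score is of a p-value or a q-value. No peak had more than 1 summit. Depth is unknown, which affects how many weak peaks a list holds.

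The summits, gene lists and motifs were chosen with earlier results of these data known. Distances were computed in Python (3.11.15) with scipy 1.17.1, pandas 2.3.3 and numpy 2.4.6, and plotted with matplotlib 3.10.9. The steps for nearest distance, class, distance to a gene end and place inside a gene were tested on simulated data. The intervals and the assigned stretches were not. Gene positions (21627 protein-coding genes on chromosomes 1 to 19 and X) and start sequences came from RefSeq tables of GRCm38.p6. Starts on chromosome 18 were counted, but none was considered for printing. All 1839 entries of the 21 gene lists matched. A gene's assigned stretch is the part of the genome nearest to its ends within 50 kb.

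Named genes are the 10 with most summits, the 10 with the best-scored summit, the 10 with most summits and no normal H3K27ac summit, all YAP/TAZ targets, up to 4 of every other list, genes at the 10 densest 100 kb windows, at the 1 kb limits and at the best-scored transcript starts. A few genes that this rule names are not reported here. Members of the class are not replicates and each group has 1 H3K27ac library, so values are descriptions and no test was made. Alternatives changed the 1 kb limits, the score minimum, the list length, the YAP libraries used and the distances to genes.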

Additional observations from a re-analysis of the deposited data

How the results depend on the processing

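The number of summits was 41623 and became 20974 at scores of 10 or more and 6726 in the best-scored list of the normal list's length, and genes with a summit went from 12168 to 2688 in the latter. The share within 1 kb of a gene end (8.24%) was 8.89% with 500 bp limits, 7.90% with 2 kb, 7.20% with 5 kb, 8.51% at scores of 10 or more and 4.91% in the best-scored list, and 5.12% or 13.1% where near meant 500 bp or 2 kb. The share among the best-scored (16.2%) was 16.8% with 2 kb limits, 18.9% with 5 kb, 17.5% and 32.1% at scores of at least 5 and 10, and 15.04% away from all 4 YAP libraries, an alternative chosen after seeing the data. The share with normal-labelled YAP (1.64%) was 1.95% with 5 kb limits, 3.10% at scores of 10 or more, 8.43% in the best-scored list and 0.929% by peak-name words. Leaving out tumor YAP replicate 1 or 2 gave 42770 to 44851 summits, 12351 to 12673 genes, 8.29% to 9.15% near a gene end, 16.6% to 17.1% among the best-scored and 1.71% to 1.98% with normal-labelled YAP. Fewer summits are tested at higher score minimums by construction, and the causes of the other shifts were not tested. Counts per list moved by over 1.5 times for all 21 lists in the best-scored list, 5 at scores of 10 or more, 3 with 5 kb limits and 7 with genes assigned within 10 kb. Of 177 genes, 19 moved so with 2 kb limits, 66 with 5 kb (Pax7 from 21 to 10, Casz1 from 21 to 8), 98 with genes assigned within 10 kb and 110 at scores of 10 or more. Counting each peak once changed nothing, as each has 1 summit. The share among the best-scored has no value within the best-scored list, nor has normal-labelled YAP away from all 4 libraries. No paired analysis was possible because no result comes from a test and each group has 1 H3K27ac library.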
